A study of Saccharomyces cerevisiae with 12 samples.

Results

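The response described here is that of a yeast strain called crz1 to 48 h of growth in 400 mM KCl, compared with the same strain at 0 h and paired by replicate number, in 6 of the 12 libraries of the study. The cells were haploid Saccharomyces cerevisiae of the BY4741 background, mating type MATa. The genotype of crz1 was his3delta1, leu2delta0, lys2delta0 and ura3delta0 with crz1delta::LEU2 and a HYG-TEFp-GFP(Y66F) insertion on chromosome VI. It lists lys2delta0 and no deletion of MET17, also called MET15, so it is not the genotype of BY4741 itself. In the second strain, crz1cnb1, cnb1delta::KanMx was added to the same genotype, so no group of the study carried CRZ1. Each strain had 3 libraries at 0 h without KCl and 3 at 48 h in 400 mM KCl. Cultures in synthetic medium with ammonium chloride as the nitrogen source were diluted every 12 h in the KCl phase, which kept growth logarithmic. No untreated culture was sampled at 48 h, so an effect of KCl and an effect of 48 h of culture cannot be told apart. In RNA from whole cultures, a change within every cell and a change in the share of cells that use a gene cannot be told apart either.

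High KCl confronts yeast with lost water and with a high load of a cation that the cell normally accumulates. The HOG kinase pathway answers osmotic stress by raising glycerol synthesis, and the factors Msn2 and Msn4 switch on a general stress programme. Calcineurin is a calcium-activated phosphatase that is needed for tolerance of several salts, Crz1 is the transcription factor it activates, and CNB1 encodes its regulatory subunit. In crz1, calcineurin itself was left intact but its main transcriptional output was removed.

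After 48 h in KCl, crz1 cells had more RNA from the glycerol synthesis genes GPD1 and GPP2, from genes of the multidrug resistance network under Pdr1 and Pdr3, of siderophore and reductive iron uptake, and from scattered stress, redox and mitochondrial translation genes. They had less RNA from genes of sulfate reduction and methionine supply, from a hexose transporter and regulators of respiration, and from single genes of mating and of phosphate supply. In the paired test with edgeR, 131 of 6309 tested features passed an adjusted p of 0.05 (2.08%). Of these, 87 were higher in KCl (1.38%) and 44 were lower (0.697%), and they are referred to as called. The change was at least 2-fold in 70 of them, 48 higher and 22 lower. The median log2 fold change over all tested features was 0.01.

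**Figure D1:**
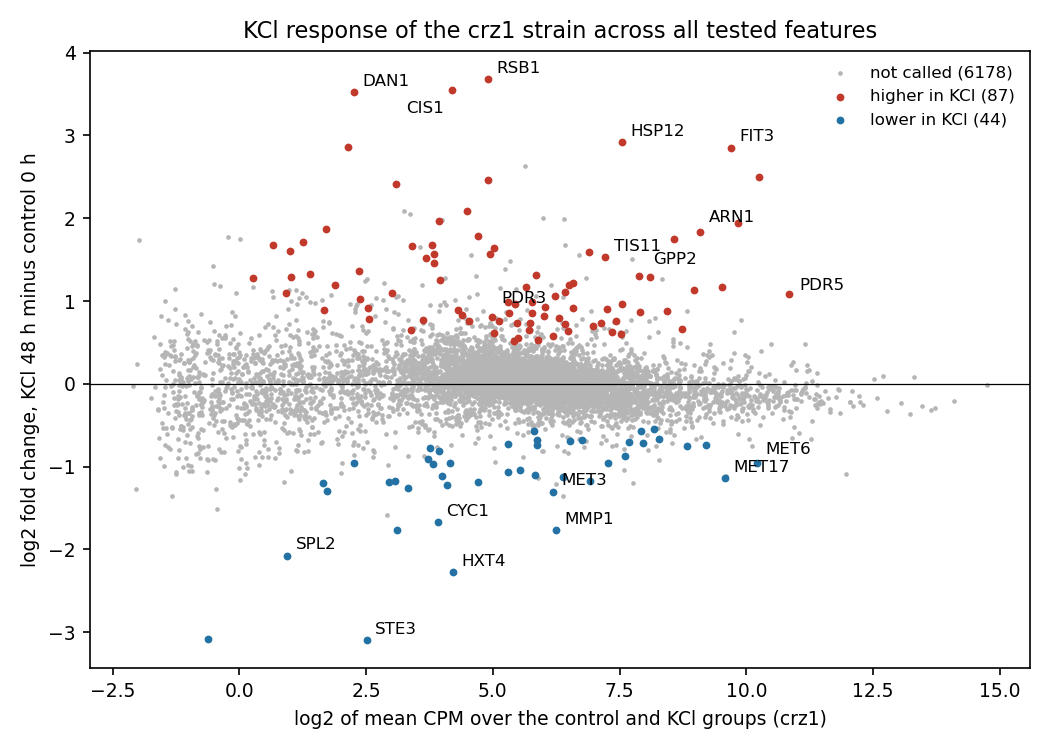
Log2 fold change of KCl at 48 h over control at 0 h in crz1 (vertical axis) against the log2 of the mean CPM (horizontal axis) for the 6309 tested features, each a point. The 87 features called higher and the 44 called lower lie on both sides of a cloud centred near 0, with RSB1 at 3.68 and STE3 at -3.09 at the extremes.

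Values below are CPM, counts scaled to library size with TMM factors, listed for replicates 1, 2 and 3 in that order. A log2 fold change is KCl minus control with its standard error. The spread was estimated with the crz1cnb1 pairs included, but each fold change rests on the 3 crz1 pairs alone. Same-numbered KCl libraries of the strains correlated at up to 0.827 in their deviations from group means. The crz1cnb1 pairs were therefore not independent of the crz1 pairs, so p-values may be too small and intervals too narrow. All 131 called features had the same sign in all 3 pairs, as did 34.3% of all tested features. In 104 of them the 3 KCl libraries lay wholly above or wholly below the 3 controls, a separation found in 10.3% of all tested features. The 131 were chosen on these same libraries, so neither count is separate support for the calls. Without the replicate block edgeR called 36 features (0.571%), 35 of which were among the 131, and with the block DESeq2 called 270 (4.54%). An unadjusted edgeR p under 0.05 was found in 1008 of all 6309 tested features. Counts of such p-values in the lists below are to be read against that share.

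The 3 pairs did not weigh alike. The first principal component of the 12 libraries held 33.7% of the variance. On it the crz1 KCl library numbered 2 lay at -6.55, among the crz1 controls at -2.84, -10.7 and -20.4. The crz1 KCl libraries numbered 1 and 3 lay at 24.2 and 21.7. Replicate 2 stood apart in crz1cnb1 as well, where KCl libraries 1, 2 and 3 lay at 20.5, -4.53 and 19.8. Without the crz1 pair numbered 2, 241 features were called (3.81%), 111 of them among the 131. The 20 calls that ended without it, at adjusted p of 0.0504 to 0.1003, were ADE17, ARN2, COA3, FIT2, HAB1, ICY1, INO1, MET10, MRPL49, MRX14, PST2, RTC2, SIT1, TIS11, URA10, WTM1, ZEO1, YGR035C, YHL046W-A and YHR214W. Without pair 3, 32 of the 131 calls remained (0.505% of tested features). Those higher were RSB1, CIS1, DAN1, HSP12, FIT3, OSI1, FRE5, ARN1, GPP2, INO1, YMR090W, CCC2, LAF1, PDR5, PDR3, ICY1, TMT1 and YHI9, and those lower were MXR1, MHT1, SAM3, MET14, MET5, MET17, NDJ1, YLR302C, MET3, CYC1, MMP1, SEO1, HXT4 and STE3. Without pair 1, the fit rested on pairs 2 and 3 and 7 of the calls remained (0.111%). They were RSB1, CIS1, DAN1, HSP12 and GPP2, which were higher, and STE3 and MMP1, which were lower. Every other call named below ended without pair 1, at adjusted p of 0.0718 to 0.350.

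The clearest single change was in RSB1 (YOR049C), which encodes an exporter of sphingoid long-chain bases from the plasma membrane. Its values were 4.76, 3.92 and 3.99 CPM in the controls and 62.7, 37.6 and 67.6 CPM in KCl, so the lowest KCl library stood far above the highest control. The log2 fold change was 3.68 ± 0.17 (95% interval 3.31 to 4.06, edgeR adjusted p = 2.14e-05). CIS1 (YLR346C), which in yeast takes part in a response to blocked mitochondrial protein import, had 3.62, 3.21 and 1.64 CPM in the controls and 48, 21.6 and 32.1 CPM in KCl, a log2 fold change of 3.54 ± 0.30 (edgeR adjusted p = 0.0014). In both genes replicate 2 had the lowest KCl value, and the groups did not overlap.

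RSB1 and CIS1 are known targets of Pdr1 and Pdr3, paired zinc-cluster activators that raise drug efflux pumps and lipid transporters and that bind an element called PDRE. PDR3 is itself a known target of the pair, and its values were 44.8, 44.3 and 57.4 CPM in the controls and 97.8, 87.8 and 119 CPM in KCl (log2 fold change 1.06 ± 0.11, edgeR adjusted p = 0.00342). PDR1 had a log2 fold change of -0.18 ± 0.12 that was not called (edgeR adjusted p = 0.493). PDR5, the main ABC efflux pump, had 1242, 1121 and 1148 CPM in the controls and 2666, 2042 and 2792 CPM in KCl (log2 fold change 1.08 ± 0.13, edgeR adjusted p = 0.00561). PDR16, a phosphatidylinositol transfer protein, had a log2 fold change of 0.75 ± 0.10 (edgeR adjusted p = 0.00893). For PDR3, PDR5 and PDR16 all 3 KCl values lay above all 3 controls.

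The list of 13 multidrug transporters and Pdr1/Pdr3 targets had 3 members called higher (RSB1, PDR5 and PDR16), none called lower, and a median log2 fold change of 0.37 against 0.01 over all tested features. PDR15, a pump related to PDR5, had 1.20 and missed the threshold (edgeR adjusted p = 0.0536), while the pumps SNQ2, PDR10 and YOR1 were at 0.08, 0.10 and 0.48 and were not called. None of 13 other drug and polyamine exporters was called by edgeR, 3 had an unadjusted p under 0.05 and DESeq2 called 0. Called genes of the network outside the list were RTA1 (1.30 ± 0.26), a relative of RSB1, and YHI9 (0.85 ± 0.11), ICY1 (0.99 ± 0.20), OSI1 (2.41 ± 0.24) and LAF1 (1.11 ± 0.14), whose functions are less well known.

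Upstream sequences of the network are shown for the genes with PDRE matches on which these results turn. The letters searched were TCCGCGGA, on both strands, in the 500 bases before each start codon of the RefSeq R64 annotation. Capitals mark the match, and each line is read 5′ to 3′ on the strand of the gene.
CIS1, chrXII:822898-822929 (minus strand), 317 bases before the start codon: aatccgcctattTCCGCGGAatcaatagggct
PDR3, chrII:217234-217265 (plus strand), 216 bases before the start codon: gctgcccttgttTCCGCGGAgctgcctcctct
PDR3, chrII:217267-217298 (plus strand), 183 bases before the start codon: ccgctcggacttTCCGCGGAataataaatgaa
PDR5, chrXV:619340-619368 (plus strand), 483 bases before the start codon: ccctctcttTCCGCGGAatcgctcatgcc
PDR5, chrXV:619515-619546 (plus strand), 305 bases before the start codon: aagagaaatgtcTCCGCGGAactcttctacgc
PDR16, chrXIV:217445-217476 (minus strand), 414 bases before the start codon: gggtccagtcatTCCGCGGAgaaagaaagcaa
YHI9, chrVIII:168702-168733 (minus strand), 152 bases before the start codon: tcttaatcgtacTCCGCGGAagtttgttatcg
PDR5 also held 1 copy of the variant TCCGTGGA, which is shown with those of OSI1 and RTA1.
PDR5, chrXV:619453-619484 (plus strand), 367 bases before the start codon: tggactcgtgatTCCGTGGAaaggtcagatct
OSI1, chrXI:304777-304808 (plus strand), 317 bases before the start codon: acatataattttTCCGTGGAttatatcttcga
RTA1, chrVII:919640-919671 (minus strand), 186 bases before the start codon: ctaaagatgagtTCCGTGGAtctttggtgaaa

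Of 5726 tested genes with such an upstream window, 35 held TCCGCGGA (0.611%). Among the genes called higher, 10 of 85 windows held it (11.8%), and among those called lower 0 of 42. Of the 35 genes, 29 had a positive log2 fold change, 10 were called higher and 0 were called lower. The 10 were CIS1, XBP1, BDH2, PDR5, PDR3, ICY1, SPO24, YHI9, PDR16 and ISU1. The match therefore also stood before genes not usually counted with drug resistance, such as XBP1, a transcriptional repressor induced by stress, BDH2, a putative dehydrogenase, and ISU1, a scaffold for iron-sulfur clusters. The ceramide synthase gene LAC1 and IPT1, for the last step of sphingolipid synthesis, held the element with log2 fold changes of 0.31 and 0.17 and were not called. The T variant, TCCGTGGA, was in 1.08% of all windows, 5.88% of windows of genes called higher (5 of 85) and none of those called lower. RSB1 had no TCCGCGGA in this window. A match is a run of letters and not a bound site.

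RSB1 removes long-chain bases, the building blocks of sphingolipids, so the genes of that pathway were examined beside it. Of 25 genes of sphingolipid synthesis and breakdown, none was called by edgeR, 2 had an unadjusted p under 0.05 and DESeq2 called 0, with log2 fold changes of -0.35 to 0.46. YDC1 and YPC1, ceramidases, were at 0.46 and 0.29, and SUR2, the sphinganine hydroxylase, was at -0.35. The median of the list was -0.05, and its sign changed when libraries were scaled by their totals.

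RNA of 1 gene for each step from dihydroxyacetone phosphate to glycerol was higher in KCl, and these were the 2 calls among 16 genes of glycerol synthesis, use and transport (median 0.19). GPP2 (YER062C), a glycerol-1-phosphatase that makes glycerol, had 179.7, 203 and 143 CPM in the controls and 620.2, 574 and 558 CPM in KCl, a log2 fold change of 1.75 ± 0.15 (95% interval 1.41 to 2.09, edgeR adjusted p = 0.0014). GPD1 (YDL022W), the glycerol-3-phosphate dehydrogenase that precedes it, had 216, 294 and 423 CPM in the controls and 584, 502 and 969 CPM in KCl (log2 fold change 1.13 ± 0.20, edgeR adjusted p = 0.0238). GPP2 was at a similar KCl level in all 3 replicates, whereas GPD1 differed between replicates in both groups. Their relatives GPP1 and GPD2, and the glycerol importer STL1, were at 0.23, -0.33 and 0.35 and were not called.

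HSP12 (YFL014W), a small membrane-associated stress protein, had 47.6, 48.3 and 34.6 CPM in the controls and 352, 259.6 and 376 CPM in KCl. Its log2 fold change was 2.91 ± 0.26 (edgeR adjusted p = 0.0016). GRE2, a methylglyoxal reductase known from osmotic stress, had 126, 156 and 129 CPM in the controls and 355, 316 and 337 CPM in KCl (log2 fold change 1.30 ± 0.17, edgeR adjusted p = 0.00837). These 4 genes were the called members among 19 osmotic and salt stress genes, whose median log2 fold change was 0.62. All 19 were positive, from 0.11 for the sodium pump gene ENA1 to 2.91 for HSP12. However, RTC3 at 2.63 and ALD3 at 1.56, an aldehyde dehydrogenase, were not called. The medians of pairs 1, 2 and 3 were 0.77, 0.29 and 0.97. Of 21 components of the HOG kinase pathway, none was called by edgeR, 1 had an unadjusted p under 0.05 and DESeq2 called 0, with log2 fold changes of -0.35 to 0.36.

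**Figure D2:**
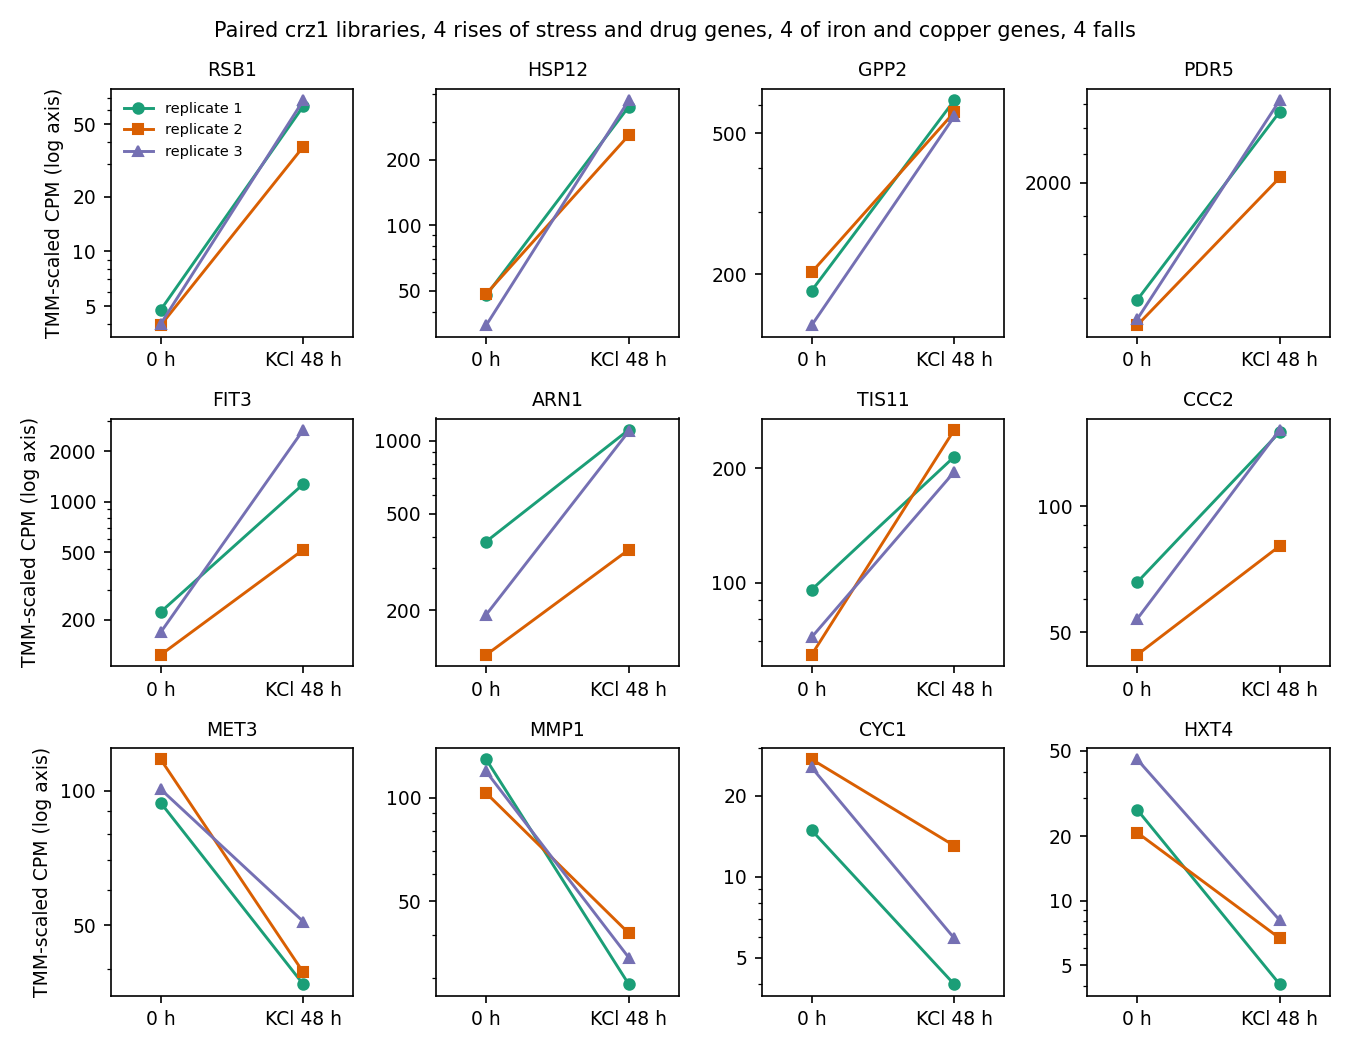
TMM-scaled CPM on log axes at 0 h and at 48 h in KCl for 12 called genes, with a line for each crz1 replicate. Every line rises for the 4 stress and drug genes and the 4 iron and copper genes and falls for the 4 genes in the bottom row, and the lines of FIT3 and ARN1 are spread more widely than those of GPP2.

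The general stress genes under Msn2 and Msn4 showed where the pairs parted. Of 28 such genes, 4 were called higher, namely HSP12, XBP1, NQM1 and TKL2, and the median log2 fold change was 1.09 with 27 positive. The medians of pairs 1, 2 and 3 were 1.29, 0.10 and 1.76, so pair 2 stood near 0. Without pair 2 the median was 1.51 and 7 members were called. TKL2, a transketolase, had 13.8, 15 and 15.2 CPM in the controls and 49.2, 25 and 65.8 CPM in KCl, and NQM1, a transaldolase, had 18.6, 19.5 and 10.1 CPM in the controls and 58.9, 40.8 and 46.7 CPM in KCl. In both genes the KCl value of replicate 2 was the lowest of the 3 but above every control. The log2 fold changes were 1.56 ± 0.29 and 1.64 ± 0.24 (edgeR adjusted p = 0.0283 and 0.0124).

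Storage carbohydrate genes followed the same split between pairs. None of 7 trehalose genes was called by edgeR, although all 7 were positive with a median of 0.54, and the pair medians were 0.77, -0.38 and 1.17. One had an unadjusted p under 0.05 and DESeq2 called 1. TSL1, a regulatory subunit of the trehalose synthase complex, was at 1.99 with pair values of 2.65, -1.53 and 4.08. Of 14 glycogen genes edgeR called none, 4 had an unadjusted p under 0.05 and DESeq2 called 1, with pair medians of 0.46, -0.20 and 0.72. Of 24 chaperone genes edgeR called none, 2 had an unadjusted p under 0.05 and DESeq2 called 1, with pair medians of 0.13, -0.37 and 0.25. The part that the position of replicate 2 plays in these lists was not tested.

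**Figure D3:**
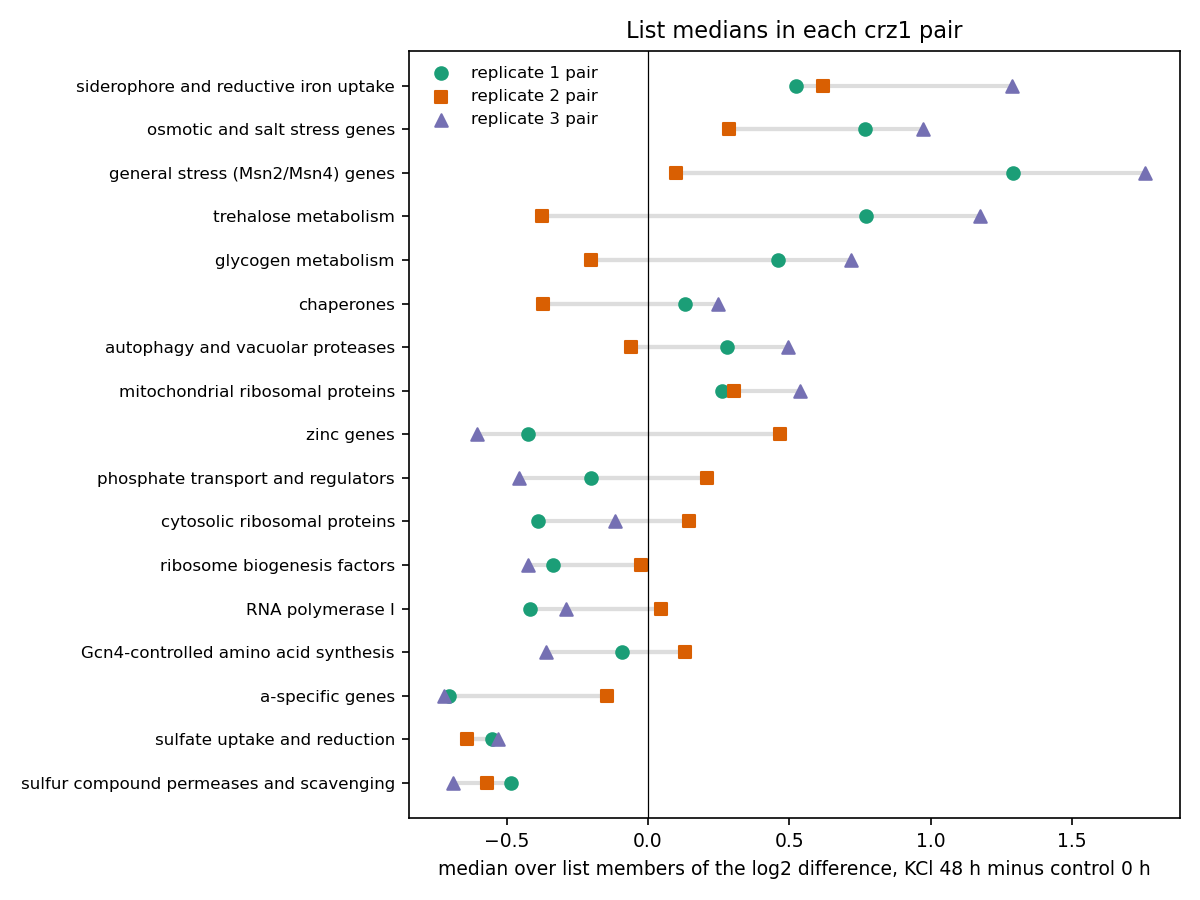
Median log2 difference over the members of 17 gene lists (horizontal axis) in each crz1 pair, with 1 symbol for each replicate number. Replicate 2 lies apart from the other pairs for general stress genes, at 0.10, and for trehalose genes, at -0.38, and close to them for sulfate uptake and reduction, at -0.64.

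Iron uptake had more called members than any of the other lists. Of 22 genes of siderophore and reductive iron uptake, 10 were called higher and none lower, against 1.38% called higher over all tested features, and the median log2 fold change was 0.72 with 20 positive. The medians of pairs 1, 2 and 3 were 0.52, 0.62 and 1.29, so pair 3 stood above the others. Without the replicate block none of the 22 was called. FIT3 (YOR383C), a cell wall mannoprotein that retains iron-siderophores, had 222, 123 and 168 CPM in the controls and 1274, 519.5 and 2674 CPM in KCl, a log2 fold change of 2.85 ± 0.34 (95% interval 2.08 to 3.63, edgeR adjusted p = 0.00618). FIT2 had 779.8, 125 and 198 CPM in the controls and 2230.5, 480.2 and 3488 CPM in KCl (log2 fold change 2.49 ± 0.49, edgeR adjusted p = 0.0392). FIT3 separated the groups, whereas the FIT2 value of control replicate 1 exceeded that of KCl replicate 2. FIT1, the third of these mannoprotein genes, was at 1.68 ± 0.34 (edgeR adjusted p = 0.043).

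Siderophore transporters carry iron-siderophores into the cell, and 3 of their genes rose. ARN1 had 384, 131 and 192 CPM in the controls and 1112, 356 and 1097 CPM in KCl (log2 fold change 1.83 ± 0.24, edgeR adjusted p = 0.00837). ARN2 had 789.5, 181 and 283 CPM in the controls and 1783, 788 and 1633 CPM in KCl (log2 fold change 1.94 ± 0.31, edgeR adjusted p = 0.0182). In both genes control replicate 1 was as high as KCl replicate 2 or higher, so the groups overlapped although each pair rose. Among ARN1, ARN2 and SIT1 (1.17 ± 0.21), only ARN1 passed without pair 2, at an adjusted p of 0.0106. Without that pair FIT2, ARN2 and SIT1 had adjusted p of 0.1, 0.0685 and 0.0537. The ferric reductase genes FRE5 (2.08 ± 0.28) and FRE3 (1.21 ± 0.20) rose, and FRE2, at 2.0, missed the threshold (edgeR adjusted p = 0.0985).

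For the high-affinity iron permease at the plasma membrane no change was called. FET3, the multicopper oxidase, and FTR1, its partner permease, were at 0.48 and 0.40 and were not called (edgeR adjusted p = 0.261 and 0.31). CCC2, the Golgi copper pump that loads Fet3, had 65.7, 44.1 and 53.7 CPM in the controls and 150.4, 80.4 and 152 CPM in KCl (log2 fold change 1.19 ± 0.14, edgeR adjusted p = 0.00459). FTH1, the vacuolar counterpart of Ftr1, rose by 0.63 ± 0.12 on the log2 scale. FET4, a low-affinity transporter, was at -0.75 and SMF3 at -0.22, the 2 negative members, neither called.

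Among 13 iron regulators and iron-sparing genes, 4 were called higher and the median was 0.25. TIS11, also known as CTH2, encodes an RNA-binding protein that degrades mRNAs of iron-using proteins, and had 95.7, 64.5 and 71.8 CPM in the controls and 214, 253 and 196 CPM in KCl (log2 fold change 1.53 ± 0.25, edgeR adjusted p = 0.0198, and 0.0504 without pair 2). HMX1, heme oxygenase, had 17.9, 11.1 and 6.66 CPM in the controls and 53.6, 24.9 and 42.4 CPM in KCl (log2 fold change 1.78 ± 0.31, edgeR adjusted p = 0.0238). The others were VHT1, the biotin importer, at 0.73 ± 0.14 and ISU1 at 0.70 ± 0.12. AFT1 and AFT2, which encode the activators of this regulon, were at 0.20 and 0.18, and CCC1, the vacuolar iron importer, at -0.28, none of them called. Rises outside the lists were in LSO1 (2.87 ± 0.57), a small gene known to respond to iron loss, and in the vacuolar ABC transporter gene VMR1 (1.29 ± 0.23), YTP1 (2.46 ± 0.39), FMP23 (1.52 ± 0.25) and the cadmium exporter gene PCA1 (0.73 ± 0.13). The vacuolar zinc and cobalt transporter gene COT1 (0.60 ± 0.11) was the 1 call among 12 zinc genes, of which 9 were negative, with a median of -0.14 and pair medians of -0.42, 0.47 and -0.61.

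Aft1 and Aft2 bind sites with the letters TGCACCC, and upstream matches are shown for 4 genes of this group. Capitals mark the match or its reverse complement, in windows as described for the PDRE. FIT3 and FRE5 are divergent neighbours and share both of their matches, so only those of FIT3 are printed.
FIT3, chrXV:1061322-1061352 (minus strand), 278 bases before the start codon: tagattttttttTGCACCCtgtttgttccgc
FIT3, chrXV:1061221-1061251 (minus strand), 177 bases before the start codon: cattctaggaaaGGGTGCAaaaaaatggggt
ARN1, chrVIII:21213-21243 (minus strand), 253 bases before the start codon: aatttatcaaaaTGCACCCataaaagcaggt
TIS11, chrXII:416889-416919 (minus strand), 242 bases before the start codon: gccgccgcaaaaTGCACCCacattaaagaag
TIS11, chrXII:416813-416843 (minus strand), 166 bases before the start codon: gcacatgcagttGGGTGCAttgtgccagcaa
CCC2, chrIV:1005373-1005403 (plus strand), 283 bases before the start codon: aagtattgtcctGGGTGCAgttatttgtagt
CCC2, chrIV:1005421-1005451 (plus strand), 235 bases before the start codon: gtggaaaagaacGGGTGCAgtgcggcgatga

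TGCACCC was in 135 of the 5726 windows (2.36%), in 17 of 85 windows of genes called higher (20.0%) and in 3 of 42 of genes called lower (7.14%). Called genes outside iron uptake whose windows held it included YTP1, LSO1, FMP23 and VMR1. The element of general stress genes, AGGGG, is short and was in 34.4% of all windows, 52.9% of those of genes called higher and 23.8% of those of genes called lower.

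**Figure D4:**
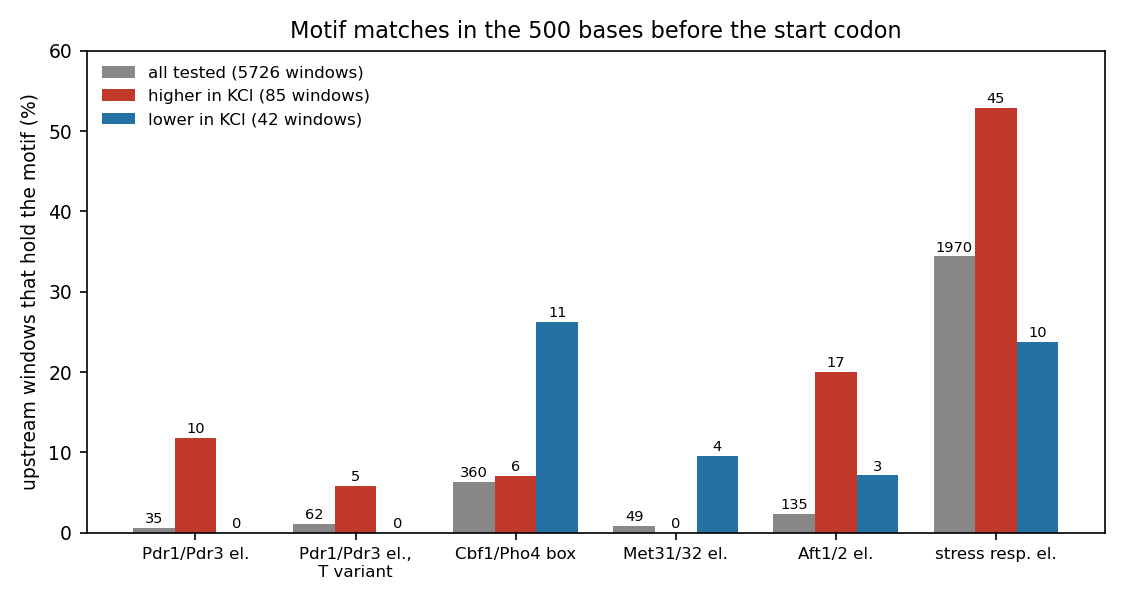
Share of 500-base upstream windows that hold each of 6 motifs (vertical axis), for all tested genes, genes called higher and genes called lower, with the number of windows holding it above each bar. The Pdr1/Pdr3 and Aft1/Aft2 elements have their tallest bars among genes called higher, at 11.8% and 20.0%, and the Cbf1/Pho4 box and Met31/Met32 element among genes called lower, at 26.2% and 9.52%.

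Several redox enzymes rose. Of 16 oxidoreductases of aldehydes and quinones, 3 were called higher (GRE2, ARI1 at 0.97 ± 0.13 and the NADPH dehydrogenase gene OYE3 at 1.03 ± 0.19) and the median was 0.34. ARI1, a carbonyl reductase, had 124, 124 and 128 CPM in the controls and 266, 226 and 246 CPM in KCl. Its controls were almost equal and lay below all 3 KCl values. In the glutathione system of 21 genes, the transferase genes GTO3 (1.67 ± 0.24) and GTT1 (0.79 ± 0.15) rose and the glutathione and oligopeptide transporter gene OPT1 fell, at -0.67 ± 0.11. TSA2, a peroxiredoxin, had 1.25 ± 0.24, and PST2 and YML131W, of the flavodoxin-like and the quinone reductase families, had 0.67 ± 0.13 and 0.92 ± 0.18. Of 9 catalase, superoxide dismutase and oxidant regulator genes edgeR called none, 3 had an unadjusted p under 0.05 and DESeq2 called 1.

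A small, broad shift was measured in genes of mitochondrial translation. Of 54 mitochondrial ribosomal protein genes, 3 were called higher (MRP49, MRPL10 and MRPL49), and 53 had a positive log2 fold change with a median of 0.38. The medians of pairs 1, 2 and 3 were 0.26, 0.30 and 0.54, and 46 members were positive in all 3 pairs. Over all tested features 34.3% had the same sign in all pairs, a share that includes features negative in all 3. MRP49 had 35, 30.4 and 21.4 CPM in the controls and 51.6, 54.2 and 48.2 CPM in KCl (log2 fold change 0.85 ± 0.13, edgeR adjusted p = 0.0126). MRPL10 had 57.1, 63.8 and 54.3 CPM in the controls and 90.2, 92.1 and 80 CPM in KCl (log2 fold change 0.58 ± 0.10, edgeR adjusted p = 0.0209). In both genes the groups did not overlap. IMG1 (0.55 ± 0.11) and MRX14 (0.53 ± 0.11), further genes of the mitochondrial ribosome, passed as well, MRX14 at an adjusted p of 0.049989. Under the scalings tried the list's median ranged up to 0.47, with that of all features at 0.10 when libraries were scaled by their totals.

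Single genes with roles in the assembly of cytochrome c oxidase, outside the lists, were called higher, namely COX17, its copper chaperone, at 0.74 ± 0.15, COX23 at 0.83 ± 0.14 and COA3 at 0.64 ± 0.13. COX10, for its heme A, was at 0.05 and was not called. These genes were named after their values were seen, and the share called among all such assembly genes was not counted. Of 36 genes of the respiratory chain and ATP synthase, 1 was called lower and 1 higher, and the median was -0.12. CYC1 (YJR048W), cytochrome c isoform 1, had 14.9, 27.3 and 25.5 CPM in the controls and 3.99, 13 and 5.91 CPM in KCl, a log2 fold change of -1.67 ± 0.22 (edgeR adjusted p = 0.00837). Every pair fell, with replicate 2 highest in both groups. CYC7 and COX5B, the isoforms used at low oxygen, were at 1.10 and 1.08 and were not called. CYB2, L-lactate dehydrogenase of the intermembrane space, was the member that rose, at 0.91 ± 0.16.

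HAP4, the activating subunit of the complex that drives respiratory genes, had 42, 52.8 and 62.1 CPM in the controls and 17.9, 39.8 and 20.8 CPM in KCl (log2 fold change -1.07 ± 0.21, edgeR adjusted p = 0.0374). CIR2, an electron-transferring flavoprotein dehydrogenase, fell by 1.10 ± 0.16 on the log2 scale, GLT1, NADH glutamate synthase, by 1.17 ± 0.24, ADR1, an activator of genes for non-fermentable carbon, by 0.68 ± 0.12, and MDH2, cytosolic malate dehydrogenase, by 0.67 ± 0.14. MLS1, malate synthase of the glyoxylate cycle, rose by 1.67 ± 0.28. Thus 1 of 18 genes of the glyoxylate cycle, gluconeogenesis and acetate use was called higher and 2 were called lower. Of 21 tricarboxylic acid cycle genes edgeR called none, 7 had an unadjusted p under 0.05 and DESeq2 called 4. CIR2, GLT1, HAP4 and MDH2 fell least in pair 2, where the differences of GLT1 and HAP4 were -0.49 and -0.41.

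Glucose uptake genes gave 2 calls, both lower. HXT4 (YHR092C), a hexose transporter gene induced by low glucose, had 26.6, 20.8 and 45.6 CPM in the controls and 4.07, 6.68 and 8.09 CPM in KCl, a log2 fold change of -2.28 ± 0.25 (95% interval -2.85 to -1.71, edgeR adjusted p = 0.00419). The 3 KCl values lay below the lowest control. MTH1, a repressor of hexose transporter genes, had a log2 fold change of -1.11 ± 0.19 (edgeR adjusted p = 0.0234). These were the 2 called members among 17 tested hexose transporter and sensor genes. HXT2 and HXT3 were at -1.12 and -1.08 and HXT5 at 1.01, and none of these was called. In glycolysis and fermentation, TDH1 (0.86 ± 0.15) and BDH2 (1.56 ± 0.25) rose among 30 genes.

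Sulfate reduction had more members called lower than any of the other lists. Of 10 genes of sulfate uptake and reduction, 5 were called lower, against 0.697% over all tested features, and the list median was -0.47. MET3 (YJR010W), ATP sulfurylase, had 94, 117 and 101 CPM in the controls and 36.9, 39.3 and 51 CPM in KCl, a log2 fold change of -1.30 ± 0.14 (95% interval -1.62 to -0.99, edgeR adjusted p = 0.00342). MET14, the kinase of the next step, had 73.6, 70.6 and 43.7 CPM in the controls and 30.8, 30.2 and 28.4 CPM in KCl (log2 fold change -1.04 ± 0.15, edgeR adjusted p = 0.012). For both genes all KCl values lay below all controls. The subunit genes of sulfite reductase, MET5 (-1.13 ± 0.17) and MET10 (-0.69 ± 0.14), and the sulfate permease gene SUL2 (-0.82 ± 0.14) fell too, and MET10 had an adjusted p of 0.0682 without pair 2. MET16, of the step between MET14 and sulfite reductase, was at -0.26 and was not called, nor was the second permease gene SUL1, at -0.18.

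Downstream, MET17, which joins sulfide to O-acetylhomoserine, had 1144, 928 and 1088 CPM in the controls and 417, 429 and 608 CPM in KCl (log2 fold change -1.14 ± 0.16, edgeR adjusted p = 0.00969). MET17 overlaps the antisense feature YLR302C, which was called lower as well (-1.23 ± 0.19), and since no strand setting of the counting is given, their reads may not be told apart. MET6, methionine synthase, had 1462, 1384 and 1852 CPM in the controls and 665, 763 and 1016 CPM in KCl (log2 fold change -0.95 ± 0.14, edgeR adjusted p = 0.0108). These were the 2 called among 16 genes of homocysteine, methionine and S-adenosylmethionine synthesis.

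Further falls were called in genes for the import and scavenging of organic sulfur. MMP1 (YLL061W), the S-methylmethionine permease, had 129, 103 and 119 CPM in the controls and 28.8, 40.5 and 34.4 CPM in KCl, a log2 fold change of -1.77 ± 0.17 (edgeR adjusted p = 0.00223). SEO1, a putative permease, had 15.3, 13.9 and 11 CPM in the controls and 3.67, 3.88 and 4.17 CPM in KCl (log2 fold change -1.77 ± 0.18, edgeR adjusted p = 0.00258). The groups were far apart in both genes. SAM3, the S-adenosylmethionine permease, and MHT1, which turns S-methylmethionine and homocysteine into methionine, had -0.96 ± 0.12 and -0.95 ± 0.15, and with them 4 of 11 permease and scavenging genes were called lower, with a list median of -0.34. MXR1, a methionine sulfoxide reductase, fell by 0.74 ± 0.12. None of 6 regulators of sulfur genes was called by edgeR, 1 had an unadjusted p under 0.05 and DESeq2 called 0. The medians of pairs 1, 2 and 3 were -0.55, -0.64 and -0.53 for sulfate uptake and reduction, so the pairs did not part in that list. For permeases and scavenging they were -0.48, -0.57 and -0.69. For homocysteine, methionine and S-adenosylmethionine synthesis, with a list median of -0.20, they were -0.26, 0.05 and -0.47. For the sulfur regulators they were -0.06, -0.61 and 0.29.

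Cbf1, which acts with Met4 on sulfur genes, and Pho4, which acts on phosphate genes, bind the letters CACGTG, and Met31 and Met32 bind AAACTGTGG. Matches are shown for MET3, which holds both, for MET14, and for the window between MMP1 and MHT1, divergent neighbours that share 1 match. Capitals mark the match or its reverse complement.
MET3, chrX:455850-455879 (plus strand), 371 bases before the start codon: agaaaaaaaggtCACGTGaccagaaaagtc
MET3, chrX:455867-455896 (plus strand), 354 bases before the start codon: gaccagaaaagtCACGTGtaattttgtaac
MET3, chrX:455974-456006 (plus strand), 244 bases before the start codon: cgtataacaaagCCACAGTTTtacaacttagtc
MET14, chrXI:439596-439625 (minus strand), 222 bases before the start codon: tgccactaatttCACGTGatcaatatattt
MMP1, chrXII:17772-17804 (plus strand), 163 bases before the start codon: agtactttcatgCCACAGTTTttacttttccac
SPL2, a phosphate gene described next, held 4 copies of CACGTG, of which the 2 nearest to its start codon are shown.
SPL2, chrVIII:375173-375202 (minus strand), 84 bases before the start codon: tctctcttttccCACGTGctccgctctctt
SPL2, chrVIII:375114-375143 (minus strand), 25 bases before the start codon: agtcactgcagcCACGTGcctagatctatt

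CACGTG was in 360 of the 5726 windows (6.29%), in 11 of 42 windows of genes called lower (26.2%) and in 6 of 85 of genes called higher (7.06%). AAACTGTGG was in 49 windows (0.856%), in 4 of 42 of genes called lower (9.52%) and in 0 of 85 of genes called higher. The 11 were MET3, MET5, MET6, MET10, MET14, MET17, SUL2, SPL2, PHM6, PHO12 and HMS2. The counts hold 3 genes of phosphate supply as well as the 7 of sulfur.

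SPL2 (YHR136C), which restrains low-affinity phosphate uptake, had 2.85, 2.67 and 3.82 CPM in the controls and 0.518, 1.0 and 0.679 CPM in KCl (log2 fold change -2.07 ± 0.28, edgeR adjusted p = 0.00839). It was the 1 called member among 14 phosphate transport and regulator genes, and PHO84, the high-affinity transporter, was at -1.04 without a call. PHO12, an acid phosphatase, and PHM6 had -1.26 ± 0.22 and -0.95 ± 0.20. PHO12 shares most of its sequence with a near-identical copy, so its value is uncertain. PHM8, a nucleotidase that releases phosphate, went the other way, with 5.85, 5.91 and 6.33 CPM in the controls and 31, 14.5 and 28.5 CPM in KCl (log2 fold change 1.96 ± 0.26, edgeR adjusted p = 0.00837).

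A few mating genes were called lower. STE3 (YKL178C), which encodes the a-factor receptor of the opposite mating type and is kept low in MATa cells, had 9.56, 9.08 and 12 CPM in the controls and 1.16, 0.873 and 1.6 CPM in KCl, a log2 fold change of -3.09 ± 0.19 (95% interval -3.51 to -2.67, edgeR adjusted p = 0.000134). It was the lowest log2 fold change of all tested features, and the groups were far apart. YKL177W, whose systematic number adjoins that of STE3, was called lower too, but its KCl values of 0.12, 0.218 and 0.0485 CPM lay near or under the level of 3 counts, so no fold is given for it. Since no strand setting of the counting is given, its reads may not be told apart from those of STE3. SST2, which ends pheromone signalling, and PRM1, needed for membrane fusion, were the called members of 23 pheromone response genes, at -0.71 ± 0.13 and -1.19 ± 0.23. Of the 23, 19 were negative and 4 positive, with a median of -0.28 and pair medians of -0.37, -0.17 and -0.54. Among 7 a-specific genes, all 7 were negative with a median of -0.55, and STE6, the a-factor exporter, was the 1 called, at -0.55 ± 0.12 with an edgeR adjusted p of 0.049989. The pair medians of the a-specific genes were -0.70, -0.15 and -0.72. Without the replicate block no member of either list was called. AMN1, which has a role in mitotic exit and in cell separation after division, fell by 0.75 ± 0.12, while PRM10 rose by 0.75 ± 0.11.

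DAN1 (YJR150C), which encodes a wall mannoprotein made under anaerobiosis, had 0.634, 1.0 and 0.601 CPM in the controls and 10.1, 6.59 and 9.89 CPM in KCl, a log2 fold change of 3.52 ± 0.31 (edgeR adjusted p = 0.0014). The other 5 anaerobic mannoprotein genes, TIR1 to TIR4 and DAN4, were at -0.16 to 0.68 and were not called. PAU5, a seripauperin, rose by 1.60 ± 0.24, the 1 call among 11 tested seripauperins. INO1, inositol-3-phosphate synthase, had 34.3, 23.8 and 157 CPM in the controls and 98.7, 144 and 254 CPM in KCl. Control replicate 3 exceeded both other KCl values of INO1, and the pair differences were 1.52, 2.60 and 0.70 (log2 fold change 1.60 ± 0.32, edgeR adjusted p = 0.043, and 0.0549 without pair 2).

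Further single rises were in the mitochondrial carrier gene DIC1 (0.90 ± 0.17), the mitochondrial lipid transfer gene UPS2 (0.62 ± 0.11), NMA2 of NAD synthesis (0.65 ± 0.12), the oxysterol-binding protein gene HES1 (1.36 ± 0.23), the vacuolar protease inhibitor gene PBI2 (0.82 ± 0.17), the proteasome assembly chaperone gene POC4 (0.81 ± 0.14), the methyltransferase gene TMT1 (0.97 ± 0.17), the peroxisomal import gene PEX21 (0.76 ± 0.12) and YMR090W (1.32 ± 0.15). Further single falls were in RRN3, an initiation factor of RNA polymerase I (-0.57 ± 0.11), ADE17 of purine synthesis (-0.87 ± 0.17), the amino acid permease gene BAP3 (-0.57 ± 0.11), the meiotic genes NDJ1 (-1.17 ± 0.14) and SSP1 (-1.20 ± 0.21), ZEO1 (-0.74 ± 0.14), HMS2 (-0.72 ± 0.13) and WTM1 (-0.70 ± 0.14). In all, 25 of the 131 called features had no standard name in the deposited tables. Genes within 30 kb of a chromosome end made up 11 of the 85 genes called higher with a known position (12.9%) and 7 of the 42 called lower (16.7%), against 309 of 5726 (5.40%) of all tested ones.

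**Figure D5:**
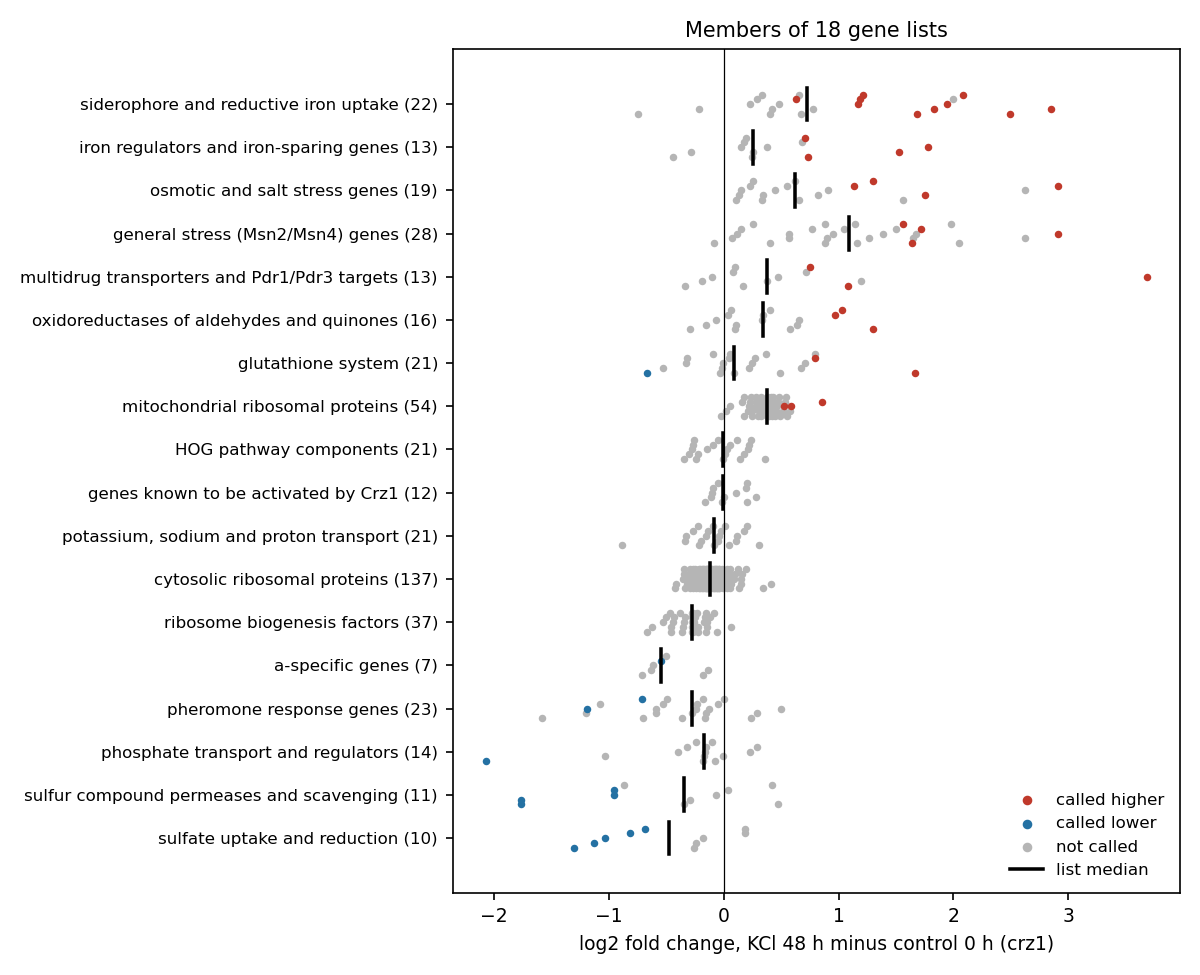
Log2 fold change in crz1 (horizontal axis) of each tested member of 18 gene lists, with the number of members in brackets, calls in colour and the list median as a bar. Calls are crowded in iron uptake, with 10 of 22 members higher, and in sulfate uptake and reduction, with 5 of 10 lower, while the mitochondrial ribosomal proteins form a narrow band at a median of 0.38.

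Genes for the handling of potassium itself gave no calls. Of 21 tested genes of potassium, sodium and proton transport, none was called by edgeR, 3 had an unadjusted p under 0.05 and DESeq2 called 0, with log2 fold changes of -0.88 to 0.31. The potassium importers TRK1 and TRK2 were at -0.20 and 0.11, the potassium channel gene TOK1 at -0.09 and the plasma membrane proton pump gene PMA1 at -0.27. PRM6, at -0.88, had the lowest p of the list (edgeR adjusted p = 0.165). Of 12 tested genes known to be activated by Crz1, none was called by edgeR, 0 had an unadjusted p under 0.05 and DESeq2 called 0, with log2 fold changes of -0.17 to 0.28, as measured in a strain without CRZ1. RCN1, an inhibitor of calcineurin and a Crz1 target, had the lowest p there, at 0.28 ± 0.16 (edgeR adjusted p = 0.421). ENA1 and ENA5 are near-identical copies of 1 sodium pump gene, and their separate values are uncertain. Of 9 calcineurin genes edgeR called none, 1 had an unadjusted p under 0.05 and DESeq2 called 0, with CNA1, a catalytic subunit, at -0.46.

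Cytosolic ribosome genes gave no calls. Of 137 cytosolic ribosomal protein genes, none was called by edgeR, 9 had an unadjusted p under 0.05 and DESeq2 called 0, with log2 fold changes of -0.42 to 0.41. Their pair medians were -0.39, 0.15 and -0.12, so pair 2 had the opposite sign. Of 37 ribosome biogenesis genes, none was called by edgeR, 6 had an unadjusted p under 0.05 and DESeq2 called 1, with log2 fold changes of -0.67 to 0.06. Of these 37, 36 were negative, with a median of -0.28 and pair medians of -0.34, -0.03 and -0.42. Of 13 genes of cyclins and SIC1 edgeR called none, 1 had an unadjusted p under 0.05 and DESeq2 called 0. In 13 cell cycle transcription factor genes edgeR also called none, 1 had an unadjusted p under 0.05 and DESeq2 called 0, with HCM1, whose protein is a calcineurin substrate, at -0.18. In 31 of the 66 lists, with 669 tested members between them, edgeR called no member.

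The response of crz1 was set against that of crz1cnb1, which was measured from its own controls and handled under the same replicate numbers. The difference of the responses was called for 0 of 6309 features by edgeR (0.0%), 41 had an unadjusted p under 0.05 (0.65%), and DESeq2 called 0. The lowest adjusted p of a difference was 0.99998. All 131 features called in crz1 had the same sign in crz1cnb1, as did 4917 of all 6309, and 94 of them were called in both strains, 59 higher and 35 lower. The 94 were 71.8% of the crz1 calls and 74.6% of the 126 calls in crz1cnb1 (2.0% of tested features). Both sets of calls came from 1 fit with a spread shared by the strains, so this overlap is not an independent replication. Same-numbered KCl libraries of the strains correlated at 0.638, 0.817 and 0.827 in their deviations from group means. The model counted this shared variation as error, so the test of the difference was conservative. Its 0 calls do not show that the responses were equal. Nothing in the response of crz1 was therefore shown to be particular to it, and differences may have been missed.

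Over the 131 features the median absolute difference between the responses of the strains was 0.16 on the log2 scale, and in 8 features the responses lay more than 1.5-fold apart. RSB1 changed by 3.68 ± 0.17 on the log2 scale in crz1 and by 3.32 ± 0.16 in crz1cnb1, where MET3 had -1.29 ± 0.14 against -1.30 ± 0.14 in crz1. HXT4 had -2.28 ± 0.25 in crz1 and -2.48 ± 0.25 in crz1cnb1. For FIT3 the values were 2.85 ± 0.34 in crz1 and 3.34 ± 0.34 in crz1cnb1, and for HSP12 2.91 ± 0.26 and 2.33 ± 0.26. Of the 131 changes, 75 were larger in crz1, where they had been chosen, and 56 were larger in crz1cnb1. The 8 were SPL2, HMX1, YHL046W-A, FRE5, FIT2, PAU5, YKL177W and ROF1, and they were chosen after their values were seen. PAU5 had 1.60 ± 0.24 in crz1 and 0.84 ± 0.25 in crz1cnb1, and FIT2 had 2.49 ± 0.49 and 3.25 ± 0.49. SPL2 had -2.07 ± 0.28 in crz1 and -1.46 ± 0.22 in crz1cnb1. ROF1 (YHR177W) was called lower in crz1 at -1.29 ± 0.21 and stood at -0.11 ± 0.23 in crz1cnb1, and that difference did not pass (unadjusted p = 0.00406 and adjusted p = 0.99998 by edgeR). For the mitochondrial ribosomal protein genes the medians were 0.38 in crz1 and 0.27 in crz1cnb1, and for iron uptake 0.72 and 1.03.

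The libraries were deep and near equal, with 21305485 to 21599279 counts each. A reading of 0 would allow up to 3 counts, which corresponded to 0.120 to 0.177 CPM and covers counting error only. CRZ1 had 4 to 9 counts in the crz1 controls and 8 to 19 in crz1 in KCl, while CNB1 had 1346 to 3139 in crz1 and 14 to 68 in crz1cnb1. URA3 and LYS2 were at 0 in every library. MET17, for which the genotype gives no deletion, had 928 to 1144 CPM in the crz1 controls. HIS3, given as his3delta1 in the genotype, had 549 to 1943 counts in the crz1 controls and 638 to 1800 in crz1 in KCl. The a-cell genes MFA1, MFA2, STE2, STE6, BAR1 and AGA2 had 1290 to 34280 counts in crz1, and of the alpha-cell genes the pheromone genes had 3 to 16, STE3 20 to 220 and SAG1 458 to 721. Whether replicates came from separate cultures is not stated in the labels. The p-values therefore measure the spread between these samples, which may be technical.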

How the data were processed

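Poly(A) RNA of 12 libraries was sequenced. As deposited by the authors, one table holds counts for 7126 genes and other features and another holds TPM, each with a column for every library. Per the submitters' processing notes, featureCounts and DESeq2 were used on build R64, with no version or role named. How reads were aligned, on which annotation and strand, and how multiple matches were counted is not given in the sources used here, so overlapping genes, antisense partners and near-identical copies are uncertain.

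Counts were tested with edgeR 4.0.16 in R 4.3.3, with TMM scaling (factors 0.791 to 1.17), filterByExpr by group, robust glmQLFit, glmQLFTest and Benjamini-Hochberg adjustment at 0.05. The model held the replicate number as a block within each strain and 1 KCl coefficient per strain. The common biological coefficient of variation was 0.151 and the median total degrees of freedom were 9.03. Standard errors are the log2 fold change over the square root of F, and 95% intervals use those degrees of freedom. Same-numbered libraries correlated at 0.309 to 0.827 in their deviations from group means and libraries of different numbers at -0.732 to 0.317. The highest value was between KCl libraries of different strains. Within crz1, control and KCl libraries of the same number correlated at 0.498, 0.309 and 0.532 for numbers 1, 2 and 3. Control 2 correlated with KCl 1 at 0.317, so the correlations do not single out the pairing of number 2. No label ties a number to a day or batch. Chi-squared per degree of freedom between libraries within a group was 78.0 to 249.6, so none was a copy. The code was tested on simulated counts.

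Called genes with a standard name, the same sign in all 3 pairs and a mean of at least 5 CPM were named if among the 14 largest rises or 10 largest falls, as were up to 4 called members, or else the 1 of lowest p, of each of 66 lists. Further genes were named after their values were seen. The members and lists were chosen with earlier results of these data known. Lists are described by counts and medians and were not tested. Gene positions, upstream windows and sequences came from RefSeq R64, where 6048 of 7126 identifiers matched. Alternatives were DESeq2 1.42.0, limma 3.58.1 on log2(TPM + 1) and log2(TPM + 0.1), other scalings and blocks, no filter, the 6 crz1 libraries alone and left-out pairs.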

Additional observations from a re-analysis of the deposited data

How the results depend on the processing

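The number of features called in crz1 (131, with 87 higher and 44 lower) changed by over 1.5 times under several settings, and the cause was not tested. With the replicate block shared by both strains it was 304 (214 higher and 90 lower), with no replicate block 36 (22 and 14), and with DESeq2 270 of 5942 (177 and 93). Limma on log2(TPM + 0.1) called 98, of which the lower ones were 28. Leaving out 1 pair gave 7 to 241 calls, 5 to 145 higher and 2 to 96 lower, over the 3 crz1 and 3 crz1cnb1 pairs, with the lowest count without crz1 replicate 1, 32 without crz1 replicate 3 and 67 without crz1cnb1 replicate 1. Leaving out replicate 2 in both strains, chosen after seeing the data, gave 1115 (592 and 523). The count stayed within 1.5 times, from 98 to 158, with DESeq2 size factors, library totals, no filter, the 6 crz1 libraries alone, both limma fits and without crz1cnb1 replicates 2 or 3. Scaling by library totals moved the median of all features to 0.10, and the medians of 17 of 66 lists changed sign under a scaling, all of them near 0. None of the 101 genes chosen by the naming rule, 70 of them called, changed sign under any setting run. The difference between strains had 0 calls under every setting it was run with, but none of these paired the strains by replicate number within KCl.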
